A study of Caenorhabditis elegans with 6 samples.

Results

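The peroxisomal beta-oxidation enzymes of the worm were examined through 9 genes, of the 20351 genes in the deposited count table. They are the acyl-CoA oxidase genes *acox-1.1* (F08A8.1), *acox-1.2* (F08A8.2), *acox-1.3* (F08A8.3), *acox-1.4* (F08A8.4), *acox-1.6* (F59F4.1) and *acox-1.5* (C48B4.1), together with *maoc-1* (E04F6.3), *dhs-28* (M03A8.1) and *daf-22* (Y57A10C.6). They were chosen by name for their place in the pathway. The choice did not use their counts, but it was made with earlier results of these data known. The data are 6 libraries of polyA RNA from whole *C. elegans* larvae at the L1 stage, all of the wild-type strain N2. In the 3 *elt-2* RNAi libraries, the mothers had eaten bacteria expressing double-stranded RNA against *elt-2* for 24 h from Day 1 of adulthood. In the 3 Control libraries, the mothers had eaten bacteria with the empty vector for the same time. Eggs were then released by bleaching, and the larvae hatched overnight in a buffer without food. Each group has replicates A, B and C, described as biological replicates, and each was made from a pooled population.

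Peroxisomal beta-oxidation shortens very long and branched fatty acyl chains round by round. An acyl-CoA oxidase introduces a double bond, an enoyl-CoA hydratase (MAOC-1) adds water, a hydroxyacyl-CoA dehydrogenase (DHS-28) oxidises the product, and a thiolase (DAF-22) cuts the chain. In *C. elegans* the same round trims the side chains of the ascarosides, the small molecules that make up the dauer pheromone. Mutants of *maoc-1*, *dhs-28* and *daf-22* lack short-chain ascarosides and build up enlarged fat droplets, and the intestine is a major site of this metabolism. ELT-2 is a GATA transcription factor of the intestine, so the comparison asks whether these genes differ between larvae of RNAi-fed and control-fed mothers.

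The libraries held between 14378960 and 22124319 counts in the *elt-2* RNAi group and between 13700707 and 19945971 in the Control group. Levels are given as CPM, which are counts scaled to a common library size after TMM, a correction for differences in library composition. The TMM factors ran from 0.964 to 1.39 in the *elt-2* RNAi libraries and from 0.616 to 1.2 in the Control libraries, and the 100 most counted genes took between 79.5% and 84.7% of each library. *elt-2* itself averaged 1.55 ± 0.506 CPM in the *elt-2* RNAi libraries and 2.18 ± 0.975 CPM in the Control libraries (SD, n = 3 each). Its log2 fold change was -0.48 (edgeR adjusted p = 0.66), so no fall of the targeted RNA could be detected in these 6 libraries, and the groups are called what their labels call them. Of 9 intestine markers fixed as a list, all 9 were tested and 2 were called lower, where 2.61% of all genes tested were called lower. The vacuolar ATPase subunit *vha-6* had a log2 fold change of -2.32 and the metallothionein *mtl-2* one of -5.88 (edgeR adjusted p = 0.0378 and 0.0114). Of the 9 values, 7 were negative and 2 positive. The markers not called were *pept-1* (-1.16), *act-5* (-1.15), *ifb-2* (-1.13), *eps-8* (-0.17), *erm-1* (-0.12), *ges-1* (0.15) and *elt-7* (0.74). The *vha-6* call was lost with plain library size (edgeR adjusted p = 0.114) and without Control replicate C, *elt-2* RNAi replicate A or *elt-2* RNAi replicate B (0.103 to 0.153). The summed level of the 9 markers ranged from 91.5 to 265 CPM in the *elt-2* RNAi libraries and from 189 to 574 CPM in the Control libraries. The actin gene *act-5* alone gave 177 of the 265 CPM and 499 of the 574 CPM, and without it, a choice made after seeing the values, the other 8 markers summed to 67.1, 49.3 and 87.9 CPM in the *elt-2* RNAi libraries and 85.3, 74.6 and 131 CPM in the Control libraries. None of the 9 was at 0 counts throughout a group, while *mtl-2* had 0, 1 and 0 counts in the *elt-2* RNAi libraries. In RNA from whole animals, fewer cells of a type and less RNA per cell cannot be told apart.

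None of these enzyme genes was called lower or higher in the *elt-2* RNAi libraries by edgeR's quasi-likelihood test (false discovery rate of 10%). Of the 9 genes, 6 passed edgeR's filter on low counts and were tested among 10063 genes, of which 2.81% were called, 2.61% lower and 0.199% higher. With no adjustment, 2 of the 6 had a p under 0.05 and were lower (*acox-1.5* and *acox-1.6*) and 0 were higher, where 10.2% of all genes were lower and 4.33% higher. The DESeq2 Wald test also called 0 of the 6 in either direction. The median log2 fold change of the 6 was -0.38, where that of all genes tested was 0.06. Of the 6 values, 5 were negative and 1 was positive, but with plain library size as the scaling *acox-1.1* (0.15) and *dhs-28* (0.20) were positive too, the median of the 6 was 0.02 and that of all genes 0.42. Under that scaling 74.1% of all calls were lower, in place of 92.9%. In 0 of the 6 did the *elt-2* RNAi values lie wholly apart from the Control values, which they did in 10.9% of all genes on the lower side and 7.08% on the higher side. The other 3 genes, *acox-1.2*, *acox-1.3* and *acox-1.4*, had too few counts to pass the filter. They are described by their counts.

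Levels differed along the pathway, and did not rise at every step. Summed, the 6 oxidases of the first step were at 6.09 ± 1.15 CPM in the *elt-2* RNAi libraries and 10.2 ± 2.73 CPM in the Control libraries. *maoc-1*, of the second step, averaged 4.66 ± 1.31 CPM in the *elt-2* RNAi libraries and 4.19 ± 1.27 CPM in the Control libraries (SD, n = 3 each). The counts come from 3SEQ libraries, which read the 3′ end of each transcript, so a count does not grow with gene length and levels of different genes were compared without dividing by length. The thiolase and the dehydrogenase were the highest, at the 91.2 and 89.8 percentile of mean CPM among all genes with a count. The hydratase followed at the 74.2 percentile, *acox-1.6* at 68.3, *acox-1.1* at 67.5 and *acox-1.5* at 54.5, while *acox-1.2*, *acox-1.3* and *acox-1.4* lay between 32.7 and 34.2. *daf-22* and *dhs-28* were not separated beyond their spread in either group, and *dhs-28* was above *maoc-1* without overlap in both. Between *maoc-1*, *acox-1.1* and *acox-1.6* the Control ranges overlapped, and in the *elt-2* RNAi libraries *maoc-1* lay above both oxidases. Together the 9 genes took between 0.00394% and 0.00558% of the counts of a library, and summed to 40.5 ± 10.8 CPM in the *elt-2* RNAi libraries and 53.7 ± 12.7 CPM in the Control libraries (SD, n = 3 each).

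**Figure D1:**
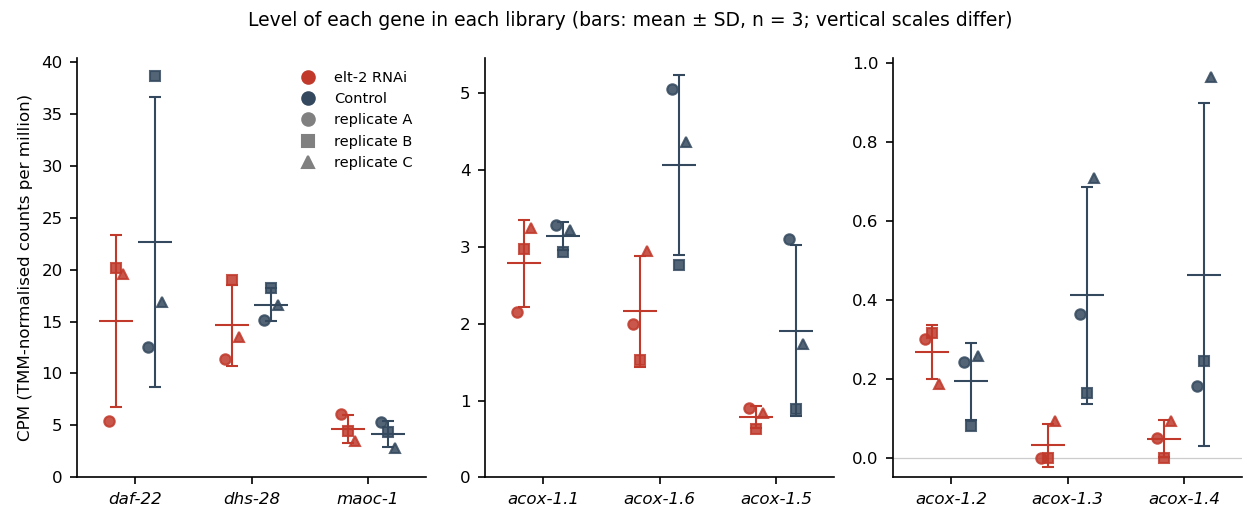
Level of each of the 9 genes in each library, in CPM after TMM scaling, with a separate linear vertical scale for each panel. Red symbols are the *elt-2* RNAi libraries and dark symbols the Control libraries, the symbol shape gives the replicate letter, and bars give the mean ± SD (n = 3). The groups overlap for every gene except *acox-1.3* and *acox-1.4*, both of which rest on few counts.

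The acyl-CoA oxidases catalyse the first step, and in *C. elegans* they work as dimers whose makeup decides which ascaroside side chains are shortened. Of these genes, 4 stand in a row on the plus strand of chromosome I. In the WBcel235 annotation *acox-1.1* covers bases 12938555 to 12942227, *acox-1.2* 12942280 to 12946588, *acox-1.3* 12946932 to 12951099 and *acox-1.4* 12951134 to 12954003. The gaps between them are 52, 343 and 34 bases. The other oxidase genes lie alone, *acox-1.6* on the minus strand of chromosome X from 15834072 to 15838546 and *acox-1.5* on the minus strand of chromosome III from 9586618 to 9592192. How alike the tandem genes are in sequence was not examined here, and the study normalized to reads with a single match, but whether the deposited counts hold only such reads is not given in the sources used here, so the split of counts among the tandem genes is uncertain.

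*acox-1.1*, the best studied oxidase of ascaroside synthesis, was the most counted gene of the tandem row. In the order A, B, C, which holds for all values here, it had 43, 66 and 69 counts in the *elt-2* RNAi libraries and 54, 36 and 50 in the Control libraries. In CPM these were 2.15, 2.97 and 3.24 against 3.28, 2.93 and 3.22. The Control values lay close together, and 1 *elt-2* RNAi library, replicate A, was below them. The log2 fold change was -0.17 (standard error 0.35, 95% interval -0.95 to 0.60, edgeR adjusted p = 0.846). The interval leaves room for a change of either sign.

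*acox-1.6* and *acox-1.5* had the most negative values of the 6 genes tested. *acox-1.6* had 40, 34 and 63 counts in the *elt-2* RNAi libraries and 83, 34 and 68 in the Control libraries, or 2, 1.53 and 2.95 CPM against 5.05, 2.77 and 4.37 CPM. Only Control replicate B lay within the *elt-2* RNAi range. Its log2 fold change was -0.91 (standard error 0.41, 95% interval -1.81 to -0.01, unadjusted p = 0.0475, edgeR adjusted p = 0.338). *acox-1.5* had 18, 14 and 18 counts in the *elt-2* RNAi libraries and 51, 11 and 27 in the Control libraries, or 0.902, 0.629 and 0.844 CPM against 3.1, 0.895 and 1.74 CPM. The *elt-2* RNAi values were tight, and the Control values ranged widely, with replicate B just under the highest *elt-2* RNAi value. The log2 fold change was -1.28 (standard error 0.51, 95% interval -2.40 to -0.15, unadjusted p = 0.0297, edgeR adjusted p = 0.284). Neither gene was called in any of the 12 alternative fits, where the lowest edgeR or DESeq2 adjusted p was 0.223 for *acox-1.6* and 0.211 for *acox-1.5*. Over the same fits the log2 fold change ran from -1.19 to -0.65 for *acox-1.6* and from -1.6 to -0.74 for *acox-1.5*.

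The remaining tandem genes were near the limit of counting. A gene at 3 counts, taken here as the floor, lies between 0.135 and 0.15 CPM in the *elt-2* RNAi libraries and between 0.182 and 0.244 CPM in the Control libraries. *acox-1.2* had 6, 7 and 4 counts in the *elt-2* RNAi libraries against 4, 1 and 4 in the Control libraries. The ratio of its summed counts, scaled by library, was 1.32 (exact 95% interval 0.555 to 3.35), so no difference was detectable at this depth. This interval and the next 2 cover counting error only, and not the spread between replicates.

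*acox-1.3* had 0, 0 and 2 counts in the *elt-2* RNAi libraries and 6, 2 and 11 in the Control libraries. Its pooled ratio was 0.0734 (exact 95% interval 0.00829 to 0.304). *acox-1.4* had 1, 0 and 2 counts in the *elt-2* RNAi libraries and 3, 3 and 15 in the Control libraries, a pooled ratio of 0.0996 (exact 95% interval 0.019 to 0.333). In CPM, with TMM and with plain library size, the groups did not overlap for either gene. With TMM this held for 6.73% of the 7325 genes that had a count but did not pass the filter, counting those lower in *elt-2* RNAi. That base includes genes with too few counts to stand apart on the lower side, so it is not matched in counts to *acox-1.3* and *acox-1.4*. All 3 *elt-2* RNAi libraries were at or below the floor for both genes. So were Control replicate B for *acox-1.3* (2 counts) and Control replicates A and B for *acox-1.4* (3 counts each). *acox-1.3* had the same 2 counts in *elt-2* RNAi replicate C and Control replicate B. Only the scaling set these libraries apart (0.0938 and 0.163 CPM with TMM, 0.0904 and 0.1 CPM with plain library size). Control replicate C held 11 of the 19 Control counts of *acox-1.3* and 15 of the 21 of *acox-1.4*. When every gene with at least 1 count was tested, edgeR called both lower, as it did 4.54% of 17388 genes (1.37% were called higher). The log2 fold changes were then -3.43 for *acox-1.3* (standard error 1.13, adjusted p = 0.0518) and -3.08 for *acox-1.4* (standard error 1.04, adjusted p = 0.0622). Without Control replicate C they were -2.83 and -1.96, and neither was called (edgeR adjusted p = 0.473 and 0.774). Without *elt-2* RNAi replicate A or replicate B neither was called (edgeR adjusted p of 0.26 and 0.263 for *acox-1.3*, 0.194 and 0.305 for *acox-1.4*), and without Control replicate B *acox-1.4* was not called (0.119). Both calls were also lost with plain library size as the scaling (edgeR adjusted p = 0.163 and 0.227). These repeats of the fit without a filter were chosen after seeing the data. The last 35 bases of *acox-1.4* overlap the end of F08A8.8 on the minus strand, a gene with 0, 4 and 0 counts in the *elt-2* RNAi libraries and 1, 0 and 0 in the Control libraries.

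Counts of the 6 oxidase genes can be set against each other within a library, which needs no scaling between libraries. There were 108, 121 and 158 oxidase counts in the *elt-2* RNAi libraries and 201, 87 and 175 in the Control libraries, or 6.09 ± 1.15 and 10.2 ± 2.73 CPM (SD, n = 3 each). *acox-1.1* took 39.8%, 54.5% and 43.7% of them in the *elt-2* RNAi libraries and 26.9%, 41.4% and 28.6% in the Control libraries. The *acox-1.1* shares overlapped between the groups through Control replicate B and *elt-2* RNAi replicate A. *acox-1.3* and *acox-1.4* together took 0.926%, 0% and 2.53% in the *elt-2* RNAi libraries (Wilson 95% intervals up to 5.06%, 3.08% and 6.33%) and 4.48%, 5.75% and 14.9% in the Control libraries (Wilson 95% intervals from 2.37%, 2.48% and 10.3%). These shares did not overlap between the groups. In CPM neither gene overlapped between the groups, and the pooled share rests on the same counts, so it adds no separate support. The intervals, which cover counting error only, of Control replicates A and B did overlap those of the *elt-2* RNAi libraries. *acox-1.2* took 5.56%, 5.79% and 2.53% in the *elt-2* RNAi libraries and 1.99%, 1.15% and 2.29% in the Control libraries, on 1 to 7 counts a library. The *acox-1.2* shares did not overlap either, and were the higher ones in *elt-2* RNAi, while all their Wilson 95% intervals overlapped. *acox-1.6* took from 28.1% to 39.9% in the *elt-2* RNAi libraries and from 38.9% to 41.3% in the Control libraries, with overlapping ranges.

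**Figure D2:**
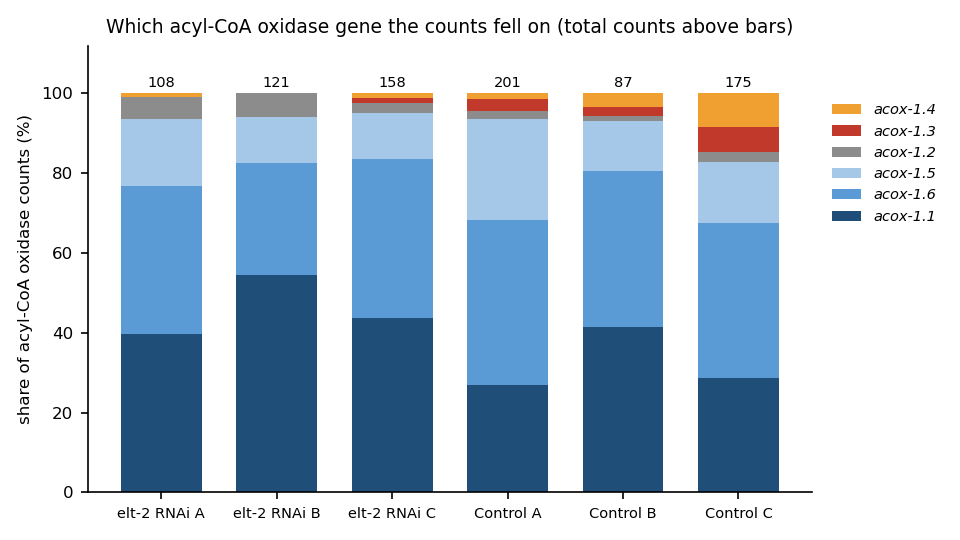
Share of all acyl-CoA oxidase counts that fell on each of the 6 genes, in percent, for each library, with the number of oxidase counts above each bar. The *elt-2* RNAi libraries stand left of the Control libraries. *acox-1.1* and *acox-1.6* took most counts in all 6 libraries, and the shares of *acox-1.3* and *acox-1.4* were largest in Control replicate C.

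MAOC-1, the enoyl-CoA hydratase of the second step, is encoded on the plus strand of chromosome II (WBcel235, 7196276 to 7197495). *maoc-1* had 121, 99 and 74 counts in the *elt-2* RNAi libraries and 88, 54 and 44 in the Control libraries, or 6.06, 4.45 and 3.47 CPM against 5.35, 4.40 and 2.83 CPM. The groups overlapped, and in both groups replicate A was the highest and replicate C the lowest. The log2 fold change was 0.15 (standard error 0.39, 95% interval -0.71 to 1.02, edgeR adjusted p = 0.886). This was the only positive value among the 6 genes tested, and it was -0.07 when either Control replicate C or *elt-2* RNAi replicate A was left out. The gene's end meets that of E04F6.6 on the minus strand, which covers all 104 bases of the annotated *maoc-1* 3′ UTR. E04F6.6 had 174, 137 and 194 counts in the *elt-2* RNAi libraries and 135, 115 and 257 in the Control libraries. Whether the counting used strand is not given in the sources used here, so reads of the 2 genes may not have been told apart.

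DHS-28, the hydroxyacyl-CoA dehydrogenase of the third step, is encoded on the plus strand of chromosome X (WBcel235, 6818438 to 6820080). *dhs-28* had 228, 423 and 288 counts in the *elt-2* RNAi libraries and 249, 224 and 258 in the Control libraries, or 11.4, 19 and 13.5 CPM against 15.1, 18.2 and 16.6 CPM. The Control values lay inside the range of the *elt-2* RNAi values. The log2 fold change was -0.18 (standard error 0.38, 95% interval -1.03 to 0.66, edgeR adjusted p = 0.851). Here too the end of the gene overlaps a gene on the minus strand, *gei-15*, which covers 76 of the 91 bases of the *dhs-28* 3′ UTR. *gei-15* averaged 8.21 ± 1.51 CPM in the *elt-2* RNAi libraries and 11.7 ± 1.3 CPM in the Control libraries (SD, n = 3 each), and it was not called (edgeR adjusted p = 0.544).

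DAF-22, the thiolase of the last step, is encoded on the minus strand of chromosome II (WBcel235, 12423518 to 12425694), and its gene overlaps no other protein-coding gene. *daf-22* had 109, 448 and 418 counts in the *elt-2* RNAi libraries and 205, 474 and 262 in the Control libraries, or 5.46, 20.1 and 19.6 CPM against 12.5, 38.6 and 16.9 CPM. It varied more between replicates than any other gene of the 6 tested, with SDs of 8.33 CPM around a mean of 15.1 in the *elt-2* RNAi libraries and 14 CPM around a mean of 22.6 in the Control libraries. Replicate A was the lowest and replicate B the highest in both groups. The log2 fold change was -0.59 (standard error 0.59, 95% interval -1.89 to 0.72, edgeR adjusted p = 0.682). Without Control replicate B it was 0.03 (adjusted p = 0.99), so its sign rested on that library.

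The ratio of 1 step to the next was compared within libraries as a description. There were 0.478, 1.06 and 1.45 *daf-22* counts for each *dhs-28* count in the *elt-2* RNAi libraries and 0.823, 2.12 and 1.02 in the Control libraries. There were 1.88, 4.27 and 3.89 *dhs-28* counts for each *maoc-1* count in the *elt-2* RNAi libraries and 2.83, 4.15 and 5.86 in the Control libraries. Both ratios overlapped between the groups, and both were lowest in replicate A of each group. The summed counts of *maoc-1*, *dhs-28* and *daf-22* were 4.24, 8.02 and 4.94 times those of the 6 oxidases in the *elt-2* RNAi libraries and 2.70, 8.64 and 3.22 times in the Control libraries, with replicate B the highest in both groups. Over the 6 libraries, Pearson's r of log2 CPM was 0.90 between *acox-1.6* and *acox-1.5* and 0.80 between *dhs-28* and *daf-22*, and it was -0.51 between *maoc-1* and *daf-22* and -0.64 between *maoc-1* and *acox-1.1*. These values describe 6 points that share the same libraries, the same scaling and the same group difference.

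**Figure D3:**
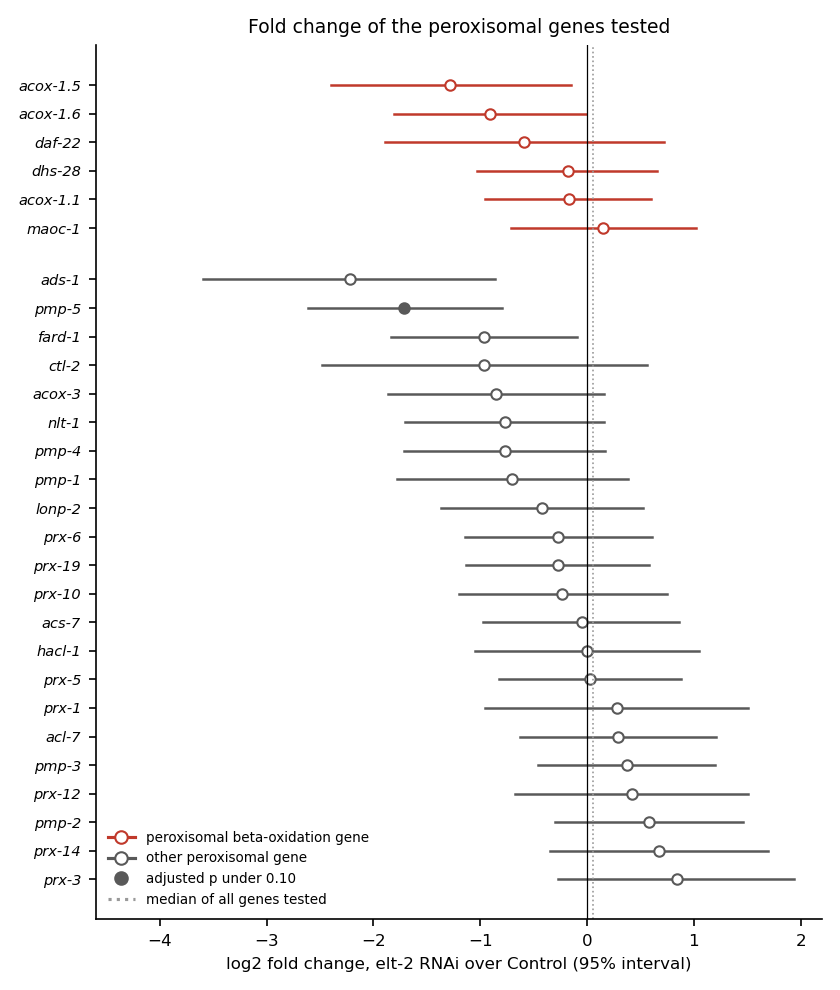
Log2 fold change of *elt-2* RNAi over Control for the 6 pathway genes tested (red) and 22 other peroxisomal genes tested (grey), with 95% intervals from the edgeR fit. A filled point marks an adjusted p under 0.10, which *pmp-5* alone had, and the dotted line is the median of all genes tested, 0.06.

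Other peroxisomal genes were counted from a list of 25, of which 22 passed the filter. Of these, 1 was called lower and 0 were called higher by edgeR (with no adjustment, 3 were lower and 0 higher at p under 0.05), and their median log2 fold change was -0.25. Of all genes tested, 2.61% were called lower and 0.199% higher, and with no adjustment 10.2% were lower and 4.33% higher. The gene called was *pmp-5*, which encodes an ABC transporter of the peroxisomal membrane family. It had 17, 24 and 31 counts in the *elt-2* RNAi libraries and 50, 38 and 77 in the Control libraries, a log2 fold change of -1.71 (standard error 0.41, edgeR adjusted p = 0.0767). In CPM the *elt-2* RNAi values lay below the Control values. With plain library size the call was lost (edgeR adjusted p = 0.32), as it was without Control replicate B or C or any 1 of the *elt-2* RNAi libraries (adjusted p from 0.102 to 0.288). The other transporters *pmp-1*, *pmp-2*, *pmp-3* and *pmp-4* had log2 fold changes of -0.70, 0.58, 0.37 and -0.77, and none of them was called.

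The 8 peroxins tested, which build the peroxisome and import its proteins, ranged in log2 fold change from -0.27 (*prx-6* and *prx-19*) to 0.84 (*prx-3*), and none was called. Among the other enzymes, the most negative value was that of *ads-1*, which makes ether lipids in the peroxisome, at -2.22 (standard error 0.62, edgeR adjusted p = 0.123). *ads-1* was called lower by the DESeq2 Wald test (adjusted p = 0.0105). *fard-1* had a value of -0.96 and the peroxisomal catalase *ctl-2* also -0.96 (edgeR adjusted p = 0.299 and 0.557). *acl-7* was at 0.29 and *hacl-1* at 0 (edgeR adjusted p = 0.777 and 0.999). *lonp-2* was at -0.42 and *nlt-1* at -0.77 (edgeR adjusted p = 0.681 and 0.433). *acs-7*, an acyl-CoA synthetase that activates ascaroside side chains, was at -0.05 and the remaining oxidase *acox-3* at -0.85 (edgeR adjusted p = 0.966 and 0.424). All of these enzymes, and the transporters and peroxins that were not called, were named here after their values were seen.

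For mitochondrial beta-oxidation, the parallel pathway for shorter chains, 21 of 26 listed genes were tested. Of these, 2 were called lower and 0 higher by edgeR (with no adjustment, 3 were lower and 0 higher at p under 0.05), and the median log2 fold change was 0.22. *hacd-1*, annotated as a hydroxyacyl-CoA dehydrogenase, had 28, 16 and 20 counts in the *elt-2* RNAi libraries and 87, 181 and 225 in the Control libraries. Its log2 fold change was -3.49 (standard error 0.51, edgeR adjusted p = 0.0119). *ech-7*, annotated as an enoyl-CoA hydratase, had 4, 15 and 44 counts in the *elt-2* RNAi libraries and 189, 444 and 172 in the Control libraries, a log2 fold change of -4.30 (standard error 0.81, edgeR adjusted p = 0.0274). Both genes stood wholly below the Control values, and *hacd-1* was called in all 12 alternatives and *ech-7* in 11. The exception for *ech-7* was the fit without *elt-2* RNAi replicate B (edgeR adjusted p = 0.138). Both are annotated for the kind of step that MAOC-1 and DHS-28 catalyse in the peroxisome, where the log2 fold changes were 0.15 and -0.18. They do not stand for their steps as a whole. The listed hydratase or trifunctional genes *ech-6* and *ech-1.2* had log2 fold changes of 0.28 and 0.25 (edgeR adjusted p = 0.825 and 0.806). A further one, *ech-1.1*, did not pass the filter. The difference between these genes' changes was not tested.

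**Figure D4:**
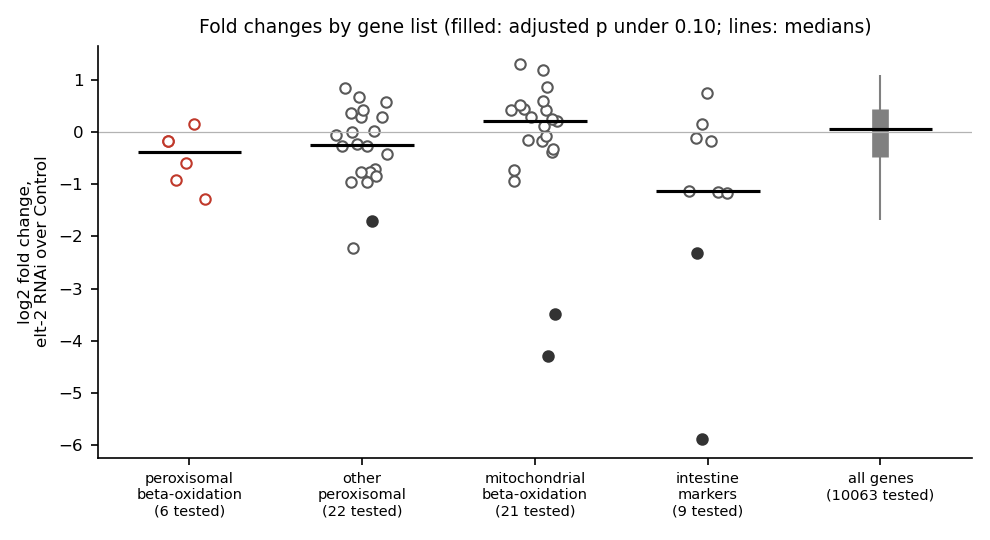
Log2 fold changes of *elt-2* RNAi over Control by gene list, 1 point a gene, with filled points for an adjusted p under 0.10 and black lines for medians. For all 10063 genes tested the thick bar spans the middle 50% and the thin line the 5th to 95th percentile. The 6 pathway genes ran from -1.28 to 0.15 with no call, while the called genes of the mitochondrial and intestine lists were lower, down to -4.30 and -5.88.

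Levels of other cell types' markers moved with some libraries. The summed level of 7 epidermis markers was 481, 631 and 3120 CPM in the *elt-2* RNAi libraries and 869, 513 and 321 CPM in the Control libraries. Of these sums, *sqt-3* alone gave 304, 366 and 2510 CPM in the *elt-2* RNAi libraries and 635, 380 and 213 CPM in the Control libraries. The sum of 4 pharynx markers was 108, 189 and 338 CPM against 210, 746 and 273 CPM. None of the 7 epidermis markers, 5 body wall muscle markers, 5 neuron markers, 4 pharynx markers and 4 germ line markers tested was called by edgeR. With no adjustment, a p under 0.05 was reached by 1 epidermis marker that was higher, 1 muscle marker and 1 neuron marker that were lower, and 0 pharynx or germ line markers. Over all genes tested, 10.2% were lower and 4.33% higher at that edgeR p. Control replicate B, with the highest *daf-22* level, also had the highest sums of the intestine, pharynx, body wall muscle (1290 CPM), neuron (64.5 CPM) and germ line (31.4 CPM) markers, but without *act-5* its intestine sum was the lowest of the Control libraries. It also had the lowest TMM factor, 0.616, which raises all of its CPM values. The part of the markers and of this scaling in the values above was not tested.

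The genes whose pattern over the 6 libraries was most like that of the pathway were found from the mean of the 6 tested genes' standardised log2 CPM. Among 3901 other genes with a median of 5 CPM or more, the highest Pearson's r were 0.926 for C24A3.2, 0.922 for T26C12.1, 0.915 for *dab-1*, 0.905 for K03B8.6 and 0.891 for *gfm-1*. These are the highest of 3901 values over 6 points and are a description only, and none of the 5 genes was called (edgeR adjusted p from 0.217 to 0.836). The mean pattern itself was -0.86, -0.13 and -0.17 in SD units in the *elt-2* RNAi libraries and 0.66, 0.3 and 0.19 in the Control libraries. The groups did not overlap in it, so genes chosen for following it had their direction set by the choice.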

How the data were processed

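The authors deposited raw read counts per gene for 6 3SEQ libraries, without normalization. Bowtie 0.12.7 is named in the submitters' processing notes, and the genome build, annotation and counting tool are not given in the sources used here. The study scaled by reads with a single match and tested by rank products, which was not repeated here. Of 20351 gene rows, 19436 matched WBcel235 genes, from which positions were taken. Symbols were matched through RefSeq locus tags, and planned descriptions of promoter motifs and protein ends were not run, as no sequence was used here.

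The quasi-likelihood test of edgeR 4.0.16 was run in R 4.3.3 with TMM and filterByExpr. P-values of the 10063 genes kept were adjusted by Benjamini-Hochberg, with calls under 0.10. Each standard error is the log2 fold change divided by the root of F. The script was tested on simulated data. Alternatives were scaling by library size, DESeq2 1.42.0 (its Wald test, and its size factors within edgeR), other filters, a threshold of 0.05, a replicate block and leaving out each library. Fits without the filter under other scalings, with the block or without a library were added after seeing the data. The members and lists were chosen with earlier results of these data known. Named genes are the 9 members, *elt-2*, list genes past the threshold and the 5 genes most alike in pattern. Genes that overlap a member, *act-5* and the list genes that were not called were named after their values were seen. The edgeR p-values set the group difference against the spread between libraries, estimated from 3 libraries a group with information shared across genes. As the smallest two-sided exact p for 3 against 3 is 0.1, no permutation test is given.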

Additional observations from a re-analysis of the deposited data

How the results depend on the processing

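None of the 6 members tested was called in either direction under any alternative. The other 3 were tested only in fits of every gene with at least 1 count, where 2 were called lower (*acox-1.3* and *acox-1.4*) and 0 higher. Over all genes, 263 were called lower and 20 higher. An adjusted p under 0.05 gave 132 and 7, library size 149 and 52, the DESeq2 Wald test 518 and 90, no filter beyond 1 count 790 and 238, and the replicate block 444 and 51, while a mean count of at least 10 gave 12 higher. Leaving out 1 library gave 77 to 520 lower and 3 to 63 higher. For the other peroxisomal genes the 1 lower call became 0 at 0.05 and with library size, 2 with DESeq2 and 2 with no filter, and 0 to 2 without 1 library. For the mitochondrial list, lower calls were 1 to 2 and higher calls 0 to 1 without 1 library, and no filter gave 1 higher (*acdh-2*). Under library size the median of all genes was 0.42 in place of 0.06 and that of the members 0.02, and it turned the sign of *acox-1.1* (0.15), *dhs-28* (0.20) and *dab-1* (0.18). Lower calls made up 92.9% of all calls, 74.1% under library size and 76.8% with no filter. Without 1 library the members' median ranged from -0.56 to -0.12, *maoc-1* from -0.07 to 0.37 and *daf-22* from -0.87 to 0.03. The causes were not tested. Same-letter libraries deviated together with r of 0.32 for A, 0.39 for B and 0.03 for C. The labels do not say whether letters mark pairs, and they were not taken as pairs in the main fit. *elt-2* RNAi replicate A correlated best with Control replicate A (next best 0.31, with C) and replicate B with Control replicate B. *elt-2* RNAi replicate C correlated best with Control replicate B (0.08). With the replicate block 0 members were called. The block added to the fit without a filter, chosen after seeing the data, also lost *acox-1.3* and *acox-1.4* (edgeR adjusted p = 0.119 and 0.162). Counts of 15 or fewer per library limit what can be said of *acox-1.2*, *acox-1.3* and *acox-1.4*.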
